A study of Mus musculus with 16 samples.

Results

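The genes described here encode the CD3 chains, the coreceptors CD4 and CD8, and the proteins that act next to them when a T cell receptor is engaged. They are Cd3e, Cd3d, Cd3g, Cd247, Cd4, Cd8a, Cd8b1, Lck, Cd5 and Cd28, which were listed by name and found by symbol in the GENCODE M21 annotation of the mouse genome (GRCm38). They are 10 of the 21938 protein-coding genes on 21 chromosomes. In each library, the peaks overlapping a gene or the 20 kb to each side of it were taken as the peaks of that gene. The windows of Cd3e, Cd3d and Cd3g overlap on chromosome 9 and those of Cd8a and Cd8b1 on chromosome 6, so the 10 genes lie in 7 loci that cover 592 kb, and a peak in an overlap counts for each gene that shares it.

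Chromatin accessibility had been measured by ATAC-seq, in which a transposase cuts open DNA and tags the ends for sequencing, in 16 libraries of mouse T cells. There were 4 libraries each of wild-type effector cells (WT TE), TPdh-/- effector cells (TPdh-/- TE), wild-type memory cells (WT TM) and TPdh-/- memory cells (TPdh-/- TM). WT libraries are labelled TPdh+/+, and TPdh-/- cells carry a T cell deletion of Pdha1, the X-linked gene of a catalytic subunit of pyruvate dehydrogenase, made with a Cre transgene driven by Cd4 regulatory DNA. Per the study's methods, splenic OT-I T cells of adult mice of both sexes, which bear a transgenic receptor for an ovalbumin peptide, were activated with that peptide and kept in IL-2 to give TE or in IL-15 to give TM. The sources used here do not say whether WT mice carried the Cre transgene, which of the libraries came from separate animals, or how many copies of the transgene there were, so p-values measure the spread between these libraries, which may be technical.

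The T cell receptor binds antigen but cannot signal by itself. It relies on the CD3 epsilon, delta, gamma and zeta chains, whose cytoplasmic motifs are phosphorylated by LCK, a kinase that CD4 or CD8 brings to the complex. CD28 adds a costimulatory signal, and CD5 restrains signalling from the receptor. OT-I cells are restricted to MHC class I and use CD8. In CD8 T cells Cd4 is silenced, and the Cd4 and Cd8 genes are known for enhancers and silencers that lie away from their promoters.

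Of the 170 regions made by merging the peaks of all libraries in the 7 loci, 7 had a peak in at least 4 of the 16 libraries. The 5 of these that hold no annotated UTR base are printed as the reference sequence around their median summit, because they are the sites where the peaks of this set of genes recurred (RefSeq, GRCm38.p6, plus strand). Capitals mark matches to 6 short motifs searched on both strands, each named here for the factor family it is known for. The ETS family was searched with the letters AGGAAG. The RUNX family was searched with the letters TGTGGT. For the TCF/LEF family the search used the letters CTTTGA. For the GATA family the search used the letters AGATAA, which none of these stretches held. The E protein family was looked for with CAGNTG, where N stands for any base. The AP-1 family was looked for with TGANTCA, again with any base at N.
Start of Cd8b1 and Smyd1, chr6:71322416-71322715: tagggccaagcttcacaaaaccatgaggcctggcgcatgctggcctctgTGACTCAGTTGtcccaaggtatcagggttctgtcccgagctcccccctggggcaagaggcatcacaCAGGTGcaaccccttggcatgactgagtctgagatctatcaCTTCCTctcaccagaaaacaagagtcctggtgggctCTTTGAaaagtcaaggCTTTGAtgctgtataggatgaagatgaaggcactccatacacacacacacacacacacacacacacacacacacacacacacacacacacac
Inner start of Lck, chr4:129558487-129558786: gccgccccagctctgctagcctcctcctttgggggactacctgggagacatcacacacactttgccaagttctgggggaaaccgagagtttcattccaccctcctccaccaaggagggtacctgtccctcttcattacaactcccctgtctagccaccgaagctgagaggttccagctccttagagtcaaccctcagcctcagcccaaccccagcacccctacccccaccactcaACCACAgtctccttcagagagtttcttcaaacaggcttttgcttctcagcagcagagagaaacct
Intron of Cd247, chr1:165844874-165845173: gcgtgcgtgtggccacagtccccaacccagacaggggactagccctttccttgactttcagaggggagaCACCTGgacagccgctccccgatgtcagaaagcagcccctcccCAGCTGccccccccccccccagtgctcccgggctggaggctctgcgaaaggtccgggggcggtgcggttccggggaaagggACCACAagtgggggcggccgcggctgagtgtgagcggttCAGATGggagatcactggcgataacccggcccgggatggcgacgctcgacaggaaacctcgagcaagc
Upstream of Cd4, chr6:124903689-124903988: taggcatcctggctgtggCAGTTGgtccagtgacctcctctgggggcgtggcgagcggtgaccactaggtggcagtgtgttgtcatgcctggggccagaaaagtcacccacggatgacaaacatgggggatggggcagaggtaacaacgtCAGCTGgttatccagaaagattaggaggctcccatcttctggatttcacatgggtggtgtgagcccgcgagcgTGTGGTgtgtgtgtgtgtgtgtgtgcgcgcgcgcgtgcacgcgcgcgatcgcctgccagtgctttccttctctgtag
Upstream of Cd3e, chr9:45020501-45020800: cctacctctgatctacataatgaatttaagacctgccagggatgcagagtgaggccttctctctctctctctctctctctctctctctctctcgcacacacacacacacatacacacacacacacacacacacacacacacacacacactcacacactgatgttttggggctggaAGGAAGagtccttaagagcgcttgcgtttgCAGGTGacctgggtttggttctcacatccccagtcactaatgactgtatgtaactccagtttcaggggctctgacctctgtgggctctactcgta
The stretch between the starts of Cd8b1 and Smyd1 held matches to 4 of the 6 motifs: 1 AP-1 match, whose last bases overlap the first of 2 E protein matches, 1 ETS match and 2 TCF/LEF matches. Among 5721 regions at the start of any annotated gene that were held by at least 4 libraries, an AP-1 match was found in 3.64% of such 300 bp stretches, a TCF/LEF match in 8.90%, an ETS match in 31.5% and an E protein match in 39.4%. The Lck stretch held 1 RUNX match, present in 11.5% of those regions, and the Cd247 stretch held 1 RUNX match and 3 E protein matches. Away from starts, the Cd4 stretch held 1 RUNX and 2 E protein matches and the Cd3e stretch 1 ETS and 1 E protein match, against 28.9% for RUNX, 43.5% for E protein and 32.5% for ETS among 3529 regions. These matches describe the letters, and binding was not measured. The stretches also differed in base content. The Cd247 intron had 67.7% GC and 21 CpG dinucleotides and the Cd4 upstream stretch had 59.7% GC and 18, whereas the Cd8b1 start had 52.3% GC and 2, the Lck inner start 56% and 3, and the Cd3e upstream stretch 50% and 4.

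The depth of the libraries differed widely. The lists held from 2290 to 86637 peaks, and the background coverage, the fragment depth that the peak caller took as its floor, was 1.18 ± 0.406 in WT TE, 0.324 ± 0.130 in TPdh-/- TE, 0.411 ± 0.107 in WT TM and 0.224 ± 0.0308 in TPdh-/- TM (SD, n = 4 each). The order of the groups by list length was the reverse of their order by coverage, with 8869 ± 7383 peaks in WT TE and 69768 ± 11594 in TPdh-/- TM. List length and depth therefore cannot be told apart from genotype and cell type in any count or strength of peaks. Over the markers of other cells, a peak within 1000 bp of a start was found in 4.17% of gene and library pairs for 6 B cell markers and in 7.29% for 6 myeloid markers. It was found in 0% for 2 NK cell markers, 4.69% for 4 erythroid markers, 7.29% for 6 markers of cells other than blood, and 20.9% for all protein-coding genes. The T cell markers are the 10 genes themselves, at 21.4% for the 7 other than Cd4, Cd8a and Cd8b1, 34.4% for Cd8a and Cd8b1 and 0% for Cd4. The order was not the same in every group, since in TPdh-/- TE the markers of cells other than blood stood at 20.8% and the 7 T cell markers at 14.3%. By a peak in the gene or 20 kb to each side, the share was 70.8% for the B cell, 64.6% for the myeloid, 59.4% for the NK cell, 46.9% for the erythroid and 56.25% for the other markers, 71.4% for the 7 T cell markers, 65.6% for Cd8a and Cd8b1, 81.25% for Cd4 and 62.5% for all genes.

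Between 2 and 10 of the 10 genes had a peak in a given library. In WT TE the 4 libraries had a peak at 3, 7, 2 and 6 of the genes, in TPdh-/- TE at 6, 8, 7 and 9, in WT TM at 10, 8, 3 and 8, and in TPdh-/- TM at 9, 10, 8 and 10. WT TE replicate 3 and WT TM replicate 3, which had the fewest, also had the shortest list of their group. The share of all protein-coding genes with a peak was also lowest in WT TE replicate 3, at 17.1%, and highest in TPdh-/- TM replicate 2, at 86.2%. Within groups the order could differ, since TPdh-/- TE replicate 2 had a peak at 8 of the genes and 59.9% of all genes, and replicate 3 at 7 and 85.7%. The mean number of the genes with a peak was 2.00 higher in TPdh-/- TM than in WT TM, where all genes stood at 82.6% ± 2.55 against 57.2% ± 20.1 (SD, n = 4). It was 3.00 higher in TPdh-/- TE than in WT TE, with all genes at 72.3% ± 12.4 against 38.1% ± 17.1 (SD, n = 4). With lists cut to the 2290 strongest peaks of each library, the difference was 0.25 in TM and -0.25 in TE, and with −log10 q of at least 5 it was 0 in TM and 1.25 in TE.

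**Figure D1:**
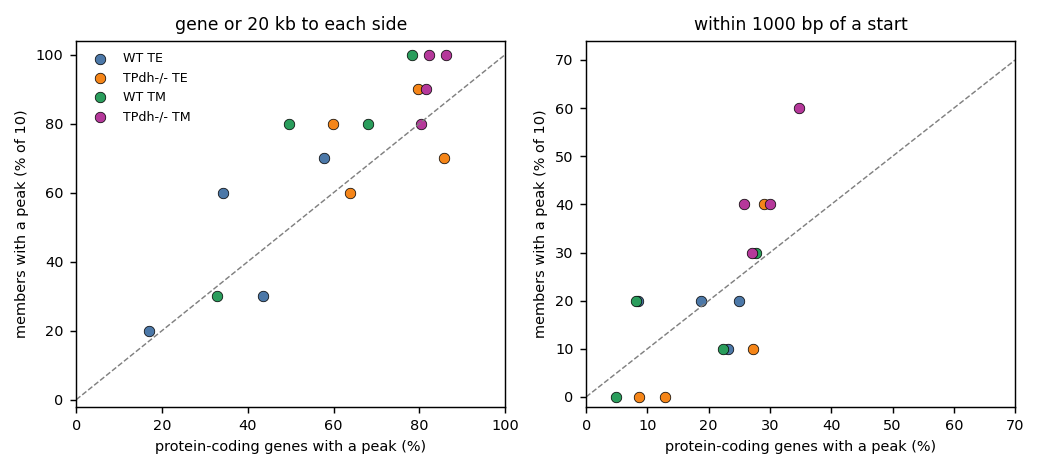
Each point is a library, with the percent of all protein-coding genes that had a peak on the x axis and the percent of the 10 genes on the y axis, for the gene with 20 kb to each side (left) and for 1000 bp around a start (right). The dashed line marks equal percentages, and the libraries lie along it on both sides.

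Seen over the 16 libraries, the 10 genes were near the middle of all genes. Each had a peak in 9 to 13 libraries, with a median of 12, and the median of all protein-coding genes was 11. Their median length was 18297 bp, beside 17425 bp for all. Cd3e and Cd4 had a peak in 13 libraries, Cd247, Cd8b1, Lck, Cd5 and Cd28 in 12, Cd3g in 10, and Cd3d and Cd8a in 9. Peaks were denser in the 7 loci than in the windows of all protein-coding genes in 14 of 16 libraries, and the ratio of the densities was lowest, at 0.845, in TPdh-/- TE replicate 2. Its highest value, 3.56, belonged to WT TE replicate 3 and rests on 3 peaks. The mean log2 ratio was 0.98 ± 0.62 in WT TE, 0.27 ± 0.37 in TPdh-/- TE, 0.48 ± 0.43 in WT TM and 0.53 ± 0.31 in TPdh-/- TM (SD, n = 4 each).

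At the starts the counts were lower. A peak within 1000 bp of an annotated start was found for 1, 2, 2 and 2 of the genes in the WT TE libraries, 0, 0, 1 and 4 in TPdh-/- TE, 3, 2, 0 and 1 in WT TM, and 4, 3, 4 and 6 in TPdh-/- TM. The TPdh-/- TM libraries thus reached the highest counts and shared the value 3 with WT TM and 4 with TPdh-/- TE. All genes were also highest there, at 29.4% ± 4.02 in TPdh-/- TM beside 15.8% ± 11.03 in WT TM and 19.5% ± 10.2 in TPdh-/- TE (SD, n = 4). In equal-sized lists the difference between TPdh-/- TM and WT TM was -0.25 genes, where it was 2.75 in the full lists. Over the 16 libraries, the start of Cd8b1 had a peak in 8, those of Cd3d and Lck in 6, Cd28 in 4, Cd3g and Cd8a in 3, Cd3e and Cd247 in 2, Cd5 in 1 and Cd4 in 0. The median over all protein-coding genes was 2 libraries.

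The peaks were small. The 239 peaks in the 7 loci had a median of 5 fragments at the summit and at most 20, and 92 of them (38.5%) had 4 or fewer. Their fold enrichment, the ratio of summit fragments to local background with 1 added to both, ran from 3.01 to 11.7 with a median of 4.38, and the highest −log10 q was 16.05. A gene without a peak in a library is therefore one at which no site passed the caller's threshold at that depth. Fold enrichment varies with the background as well as with the fragments. In the Cd8a window, 16 fragments gave 4.82 in WT TE replicate 3 over a local background of 2.53. In TPdh-/- TM replicate 4, 16 fragments over 0.456 gave 11.7. Differences in strength between groups therefore cannot be told apart from depth. Most sites did not recur. Of the 170 regions, 133 (78.2%) came from 1 library, as did 86.9% of all 524910 regions, and 30 came from 2 or 3. The 7 held by at least 4 libraries were 4.12%, beside 1.76% of all regions.

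**Figure D2:**
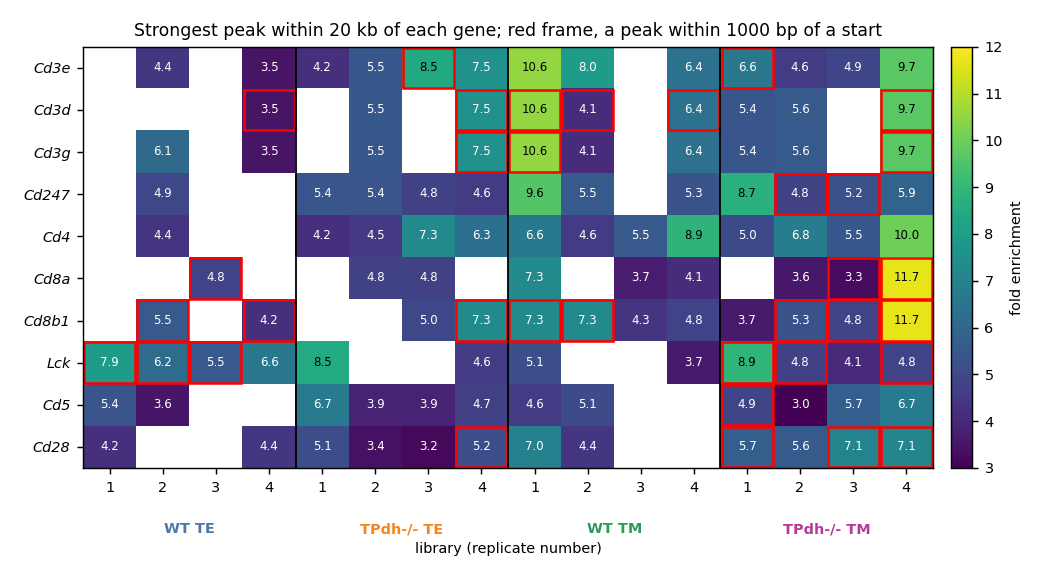
Fold enrichment of the strongest peak in each gene or the 20 kb to each side, by gene (rows) and library (columns, 4 per group). Blank cells had no peak, and a red frame marks a peak within 1000 bp of an annotated start, which need not be the strongest one. WT TE has more blanks than any other group, and the highest value is 11.7 at Cd8a and Cd8b1 in TPdh-/- TM replicate 4.

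The CD3 genes lie side by side on chromosome 9, with Cd3e (ENSMUSG00000032093.7, 44998740 to 45009627, minus strand), Cd3d (ENSMUSG00000032094.8, 44981786 to 44987339, plus strand) and Cd3g (ENSMUSG00000002033.14, 44969572 to 44980431, minus strand). They encode the epsilon, delta and gamma chains, which pair around the receptor. The most recurrent site there lay in a UTR exon near the 3′ end of Cd3d, at 44986595 to 44986929, 4965 bp into the gene and within 1000 bp of an annotated inner start. Fold enrichment there was 10.6 in WT TM replicate 1, 3.42 in WT TM replicate 2, 6.40 in WT TM replicate 4, 7.54 in TPdh-/- TE replicate 4 and 9.69 in TPdh-/- TM replicate 4, on 4 to 15 fragments. No WT TE library held this region, and WT TM held it most often. WT TE replicate 4 had a peak just beside it, at 44986196 to 44986439, with a fold enrichment of 3.48 on 13 fragments. The absence in WT TE therefore depends on where the region ends. A second site, 11024 bp upstream of Cd3e and outside any protein-coding gene, at 45020405 to 45020818, had peaks in 4 libraries. They reached 4.43 in WT TE replicate 2, 3.97 in TPdh-/- TE replicate 3, 5.17 in WT TM replicate 1 and 7.98 in WT TM replicate 2. No TPdh-/- TM library had a peak there, although TPdh-/- TM had the most peaks in the locus, 16 against 12 in WT TM, 9 in TPdh-/- TE and 3 in WT TE. At the start of Cd3g, a region from 44979774 to 44980574 was held by 3 libraries, with a fold enrichment of 5.20 in TPdh-/- TE replicate 4, 7.60 in WT TM replicate 1 and 3.37 in TPdh-/- TM replicate 4. In the window of Cd3e, the strongest peak was 4.43 and 3.48 in WT TE replicates 2 and 4, 4.23, 5.48, 8.47 and 7.54 in TPdh-/- TE, 10.6, 7.98 and 6.40 in WT TM replicates 1, 2 and 4, and 6.55, 4.59, 4.88 and 9.69 in TPdh-/- TM. Only TPdh-/- TE replicate 1 of the TPdh-/- libraries lay below the higher WT TE value. In the libraries with 3.48, 5.48, 7.54, 10.6, 6.40 and 9.69, the strongest peak was shared by Cd3e, Cd3d and Cd3g, so the values of these genes are not separate measurements.

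Cd247 (ENSMUSG00000005763.15, chromosome 1, 165788681 to 165877277, plus strand) encodes the zeta chain, which carries the most phosphorylation motifs of the complex. At 88597 bp it is the longest of the genes. Its window held 1 peak over the 4 WT TE libraries, 11 in TPdh-/- TE, 12 in WT TM and 23 in TPdh-/- TM. The strongest was 4.93 in WT TE replicate 2, 5.39, 5.38, 4.77 and 4.57 in TPdh-/- TE, 9.59, 5.55 and 5.29 in WT TM replicates 1, 2 and 4, and 8.71, 4.76, 5.23 and 5.90 in TPdh-/- TM. The 3 other WT TE libraries and WT TM replicate 3 had none, and the values of the groups overlapped. The site held most often lay in an intron, 56343 bp from the 5′ end, at 165844762 to 165845332, within 1000 bp of the starts of the predicted genes Gm32999 and Gm37856. Its fold enrichment was 4.93 in WT TE replicate 2 and 8.71, 3.96 and 3.76 in TPdh-/- TM replicates 1, 2 and 3. At the start of Cd247 itself, peaks were found in 2 libraries, both TPdh-/- TM.

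Cd8a (ENSMUSG00000053977.13, chromosome 6, 71373427 to 71379173, plus strand) and Cd8b1 (ENSMUSG00000053044.8, chromosome 6, 71322788 to 71337494, plus strand) encode the alpha and beta chains of the CD8 coreceptor. The most recurrent site of the locus, at 71322150 to 71322958, lay between the start of Cd8b1 and a divergent annotated start of Smyd1. Smyd1 is a methyltransferase gene known from muscle. Its RefSeq promoter lies elsewhere, at 71262232 to 71262531, and had a peak in 0 libraries. The site had its median summit 222 bp upstream of Cd8b1. It had a peak in 8 of 16 libraries. Fold enrichment was 5.22 and 4.23 in WT TE replicates 2 and 4, 6.33 in TPdh-/- TE replicate 4, 3.69 and 7.28 in WT TM replicates 1 and 2, and 5.27, 4.83 and 8.51 in TPdh-/- TM replicates 2, 3 and 4. Each group had at least 1 such library, no group had all 4, and the single TPdh-/- TE value lay above both WT TE values and within the ranges of WT TM and TPdh-/- TM. Because the starts lie close together, the peak cannot be given to Cd8b1 rather than Smyd1. At the start of Cd8a, a peak from 71373447 to 71373891 was found in WT TE replicate 3 with a fold enrichment of 4.82 on 16 fragments and in TPdh-/- TM replicate 4 with 3.47. TPdh-/- TM replicate 3 had another peak at that start, from 71372345 to 71372631, with a fold enrichment of 3.25. The strongest peak of all 7 loci lay 19785 bp upstream of Cd8a, at 71353239 to 71354262, within 1000 bp of the start of the predicted gene Gm44174. It reached 11.7 on 16 fragments in TPdh-/- TM replicate 4 and 7.32 on 10 fragments in WT TM replicate 1, and no TE library had a peak there. In WT TM replicate 1 Cd8a was counted through this peak alone.

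Cd4 (ENSMUSG00000023274.14, chromosome 6, 124864692 to 124888221, minus strand) encodes the coreceptor of helper T cells, and its regulatory DNA drives the Cre that deletes Pdha1. Reads from the transgene and from the Cd4 gene cannot be told apart where they share sequence. No library of either genotype had a peak within 1000 bp of an annotated Cd4 start. Peaks in the window were found in 1 WT TE library and in all 4 libraries of each other group. The strongest had a fold enrichment of 4.38 in WT TE replicate 2, of 4.23, 4.51, 7.27 and 6.27 in TPdh-/- TE, of 6.64, 4.60, 5.52 and 8.85 in WT TM and of 5.02, 6.81, 5.50 and 10.03 in TPdh-/- TM. The other 3 WT TE libraries had none, and every library of the other groups except TPdh-/- TE replicate 1 lay above WT TE replicate 2. The strongest peaks lay at different places. The site shared by most libraries lay 15618 bp upstream, outside any protein-coding gene, at 124903523 to 124904319. It was held by TPdh-/- TE replicate 4 (6.27), WT TM replicate 1 (6.64) and TPdh-/- TM replicates 2 and 3 (3.78 and 5.50). A site in an intron of Cd4, 2228 bp from the 5′ end at 124885639 to 124886508, was held by WT TM replicate 1 (3.59) and by TPdh-/- TM replicate 4, where it reached 10.03 on 19 fragments.

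**Figure D3:**
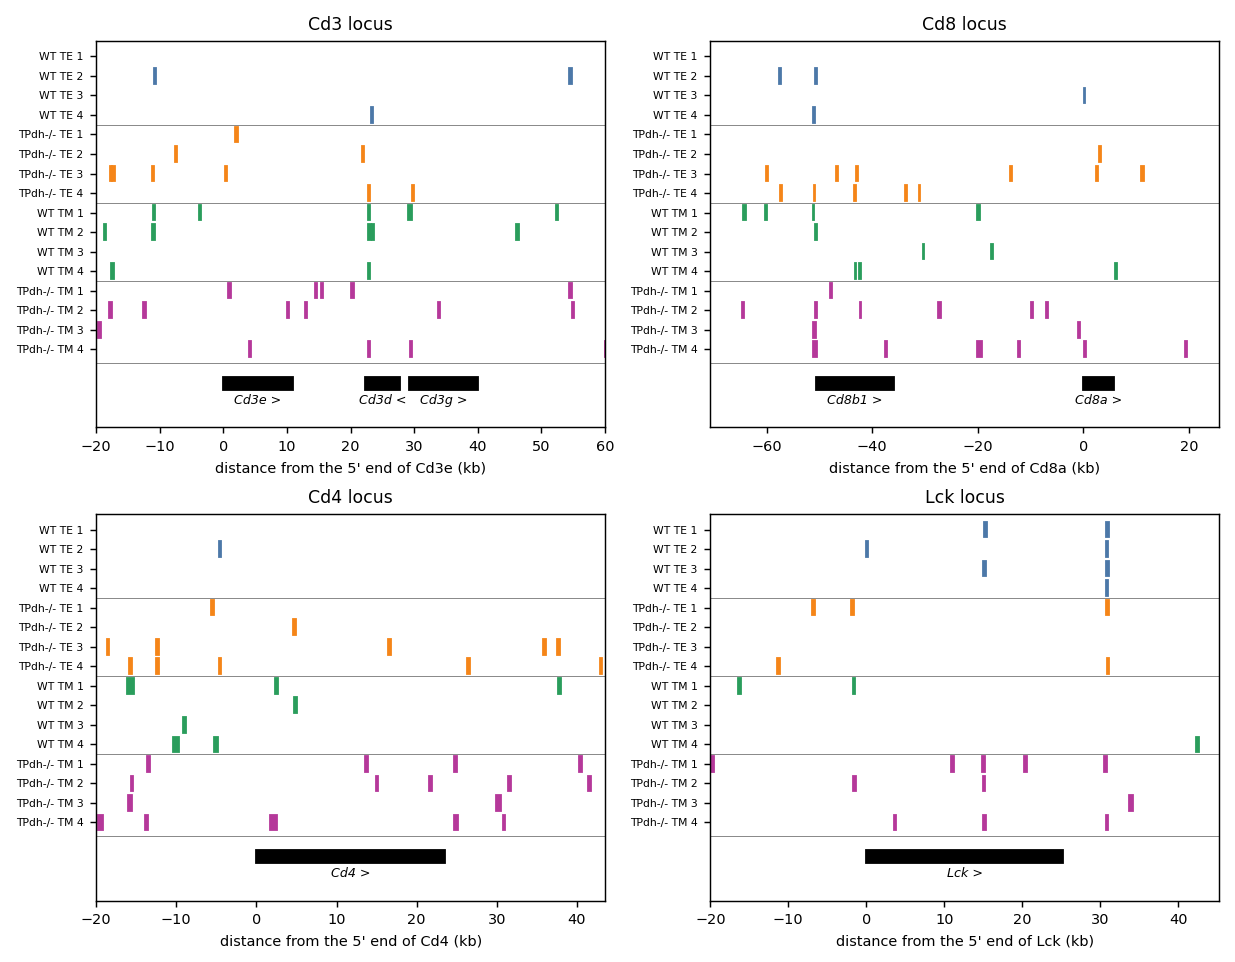
Peaks of the 16 libraries (rows, coloured by group) in the windows of the Cd3, Cd8, Cd4 and Lck loci, by distance in kb from the 5′ end of the gene named on the x axis. Positive values point along that gene, black bars are the genes described with arrows for their direction, and peaks under 0.35 kb are drawn at that width. The 4 WT TE peaks about 30877 bp from the 5′ end of Lck stand in 1 column at the start of Hdac1.

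Lck (ENSMUSG00000000409.14, chromosome 4, 129548344 to 129573641, minus strand) encodes the kinase that starts signalling at the CD3 chains, and it is transcribed from a distal and a proximal promoter. The inner start, 15004 bp into the annotated gene, lay in a region from 129558321 to 129558813 held by 5 libraries. Fold enrichment there was 4.30 and 4.15 in WT TE replicates 1 and 3 on 11 and 10 fragments, and 3.28, 4.76 and 4.21 in TPdh-/- TM replicates 1, 2 and 4 on 3, 5 and 4 fragments. No TPdh-/- TE or WT TM library had a peak there. The WT TE peaks do not overlap each other and were joined through those of TPdh-/- TM, and the start of a microRNA gene, Mir8119, lies within 1000 bp. The outer start had 1 peak, in WT TE replicate 2, with a fold enrichment of 5.19. The most recurrent site in the Lck window belonged to its neighbour. A region from 129542461 to 129543141 at the start of Hdac1, a histone deacetylase gene, was held by 8 libraries, with fold enrichments of 7.93, 6.16, 5.51 and 6.61 in WT TE, 4.91 and 4.34 in TPdh-/- TE replicates 1 and 4, and 3.26 and 4.82 in TPdh-/- TM replicates 1 and 4. All 4 WT TE libraries and no WT TM library held it. It was the only region of the 7 loci held by a whole group (Fisher's exact p = 0.0286 for WT TM against WT TE). Among all regions, 0.0587% reached that p in this comparison, and none passed adjustment. Hdac1 also gave the strongest peak of the Lck window in each WT TE library and in TPdh-/- TM replicate 4. The strongest peaks elsewhere were 8.52 and 4.57 in TPdh-/- TE replicates 1 and 4, 5.14 and 3.67 in WT TM replicates 1 and 4, and 8.88, 4.76 and 4.06 in TPdh-/- TM replicates 1, 2 and 3. These lay at different places, and the other 2 libraries each of TPdh-/- TE and WT TM had none. In WT TE replicate 4 the Lck window had no peak other than this one, so Lck was counted there through Hdac1. Of the 114 pairs of a gene and a library with a peak, 7 (6.14%) rested in this way on the start of another gene alone. Besides Hdac1 these were Gm32999 and Gm37856 for Cd247, A430093F15Rik for Cd5, Gm44174 for Cd8a, Gm11579 for Cd28 in WT TE replicate 1 and Gm19121 for Cd3g in WT TE replicate 2.

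Cd5 (ENSMUSG00000024669.8, chromosome 19, 10717116 to 10739002, minus strand) encodes an inhibitory surface protein whose level follows receptor signalling. A peak 815 bp upstream in TPdh-/- TM replicate 1 was the only one at its start. Its strongest peaks were 5.39 and 3.56 in WT TE replicates 1 and 2, both in an intron of Vps37c, and 4.58 and 5.10 in WT TM replicates 1 and 2, both at the start of A430093F15Rik. They were 6.68, 3.88, 3.87 and 4.71 in TPdh-/- TE and 4.87, 3.03, 5.69 and 6.71 in TPdh-/- TM. Both TPdh-/- groups had a peak in every library and both WT groups in 2 of 4, with values that overlapped.

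Cd28 (ENSMUSG00000026012.2, chromosome 1, 60716800 to 60773359, plus strand) encodes the costimulatory receptor. The strongest peak in its window had a fold enrichment of 4.23 and 4.41 in WT TE replicates 1 and 4, of 6.97 and 4.43 in WT TM replicates 1 and 2, of 5.13, 3.39, 3.18 and 5.17 in TPdh-/- TE and of 5.74, 5.55, 7.07 and 7.14 in TPdh-/- TM. Each TPdh-/- TM library lay above each TPdh-/- TE library, a separation that 2.9% of genes tested showed in either direction and that was absent in lists cut to 2290 peaks, where the difference was 0. An intronic region at an annotated inner start, 29457 bp into the gene at 60745977 to 60746359, was held by 3 libraries, 1 TPdh-/- TE and 2 TPdh-/- TM. Peaks at a start of Cd28 were found in 4 libraries, of which 3 were TPdh-/- TM.

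**Figure D4:**
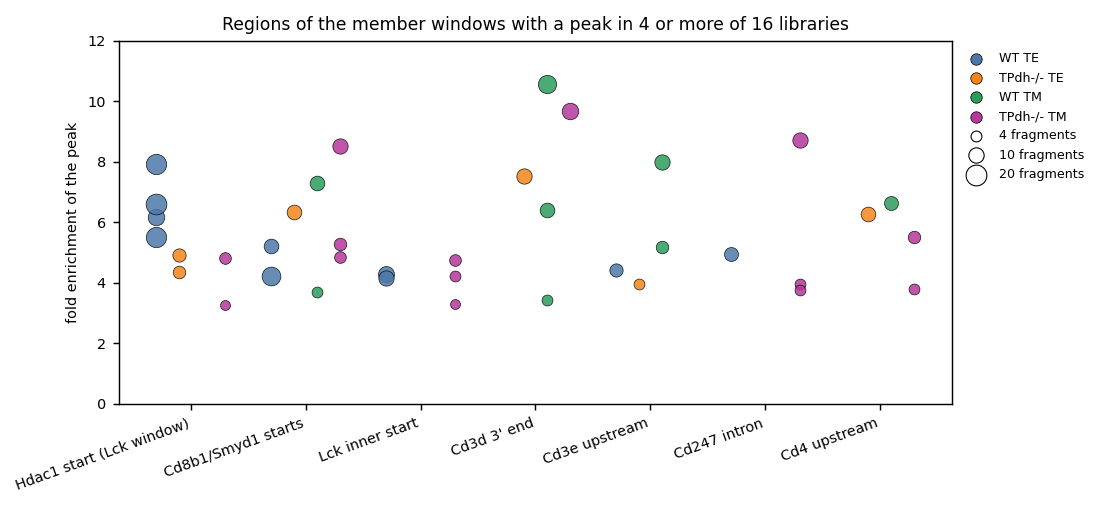
Fold enrichment (y axis) of the peaks at the 7 regions that at least 4 of 16 libraries held, with 1 point per library that had a peak, coloured by group and sized by the fragments at the summit. The 4 WT TE libraries stand highest at the start of Hdac1, and the other regions mix groups.

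TPdh-/- was compared with WT to ask whether loss of pyruvate dehydrogenase moved accessibility at these genes. By the number of libraries with a peak, none of the 10 genes reached an unadjusted p under 0.05 in TM (Fisher's exact test), where 1.15% of all genes did, or in TE, where 4.98% did. In TM, 5 of the genes had a peak in more TPdh-/- than WT libraries, none in fewer and 5 in as many, with a median difference of 0.5 libraries beside 1 for all genes. In TE the counts were 7, 1 and 2, with a median difference of 1.5 libraries beside 1, and Lck was the gene with fewer. By the fold enrichment of the strongest peak, with 1 where a library had none, none of the genes reached an unadjusted p under 0.05 in TM (two-sided exact permutation test), where 3.81% of genes tested did, or in TE, where 8.72% did. The genes with the lowest p were Cd3e and Cd4 in TE, both with p = 0.0571 (exact permutation, adjusted 0.455). Cd3e had a mean of 6.43 ± 1.93 in TPdh-/- TE and 2.48 ± 1.75 in WT TE, and Cd4 of 5.57 ± 1.45 and 1.85 ± 1.69 (SD, n = 4). No region of the 7 loci separated the genotypes, while 0.0304% of all regions in TM and 0.0389% in TE reached p under 0.05. No gene or region passed Benjamini-Hochberg adjustment in any of the 4 comparisons, and the smallest p that 4 libraries against 4 can give is 0.0286.

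WT TM was compared with WT TE, and TPdh-/- TM with TPdh-/- TE, to ask how memory and effector cells differed in each genotype. No gene was called by the number of libraries with a peak in either comparison, beside 1.75% of all genes in WT and 0.287% in TPdh-/-. By the strongest peak, Cd4 and Lck reached the smallest possible p in WT, where 4.52% of genes tested had a p under 0.05. Cd4 had a mean fold enrichment of 6.41 ± 1.83 in WT TM against 1.85 ± 1.69 in WT TE, and Lck of 2.70 ± 2.06 against 6.55 ± 1.02 (SD, n = 4, exact permutation p = 0.0286 and adjusted p = 0.633 for both). With 5 kb to each side, a window that leaves out the start of Hdac1, the Lck difference went from -3.85 to -1.66 (exact permutation p = 0.371), and with 50 kb to each side the Cd4 difference went from 4.56 to -0.0676 (exact permutation p = 0.943). In TPdh-/- cells Cd28 reached that p, with 6.37 ± 0.845 in TM against 4.22 ± 1.08 in TE (SD, n = 4, exact permutation p = 0.0286, adjusted 0.922), and 2.9% of genes tested had a p under 0.05. In lists cut to 2290 peaks the Cd28 difference was 0 (exact permutation p = 1). Among all regions 0.0243% separated TPdh-/- TM from TPdh-/- TE, and none of these lay in the 7 loci. The comparisons share groups, so their values are not independent of each other.

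The genotype effect on the strongest peak was compared between TM and TE. For Lck the effect was 2.93 in TM and -2.78 in TE, a difference of 5.71 (exact permutation of residuals p = 0.0290, adjusted 0.487), and 8.83% of all genes tested had an unadjusted p under 0.05. The other 9 genes had p from 0.0853 for Cd4 to 0.982 for Cd8a by the same exact permutation. In each WT TE library and in TPdh-/- TM replicate 4, the strongest peak of the Lck window lay at the start of Hdac1. With 5 kb to each side, which leaves out that start, the difference for Lck was 3.49 (exact permutation p = 0.275).

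Of 32 further genes of proximal receptor signalling, 6 had a peak in all 4 TPdh-/- TE libraries and in no WT TE library, and 4.98% of all genes were called by this test, nearly all of them higher in TPdh-/- TE. The 6 include Zap70, the kinase recruited to phosphorylated CD3 chains, Cd6, a relative of CD5, Csk, the kinase that restrains LCK, Icos, a costimulatory receptor of the CD28 family, and Ubash3a, a negative regulator of receptor signalling. The mean fold enrichment in TPdh-/- TE was 5.80 at Zap70, 5.04 at Cd6, 5.02 at Csk, 4.26 at Icos and 4.09 at Ubash3a (Fisher's exact p = 0.0286 and adjusted p = 0.573 for each). By the strongest peak 9 of the 32 reached an unadjusted p under 0.05 in that comparison, all higher in TPdh-/- TE (exact permutation, adjusted p = 0.328 for each), where 8.72% of genes tested did, 1648 of 1831 of them higher in TPdh-/- TE. In TPdh-/- TM against WT TM none of the 32 was called by libraries with a peak, beside 1.15% of all genes, and 1 by the strongest peak, beside 3.81%. Their library difference there had a median of 1 and a mean of 0.625, beside 1 and 1.02 for all genes. In TE its median was 2 and its mean 1.91, beside 1 and 1.37 for all genes. In WT TM against WT TE, Ubash3a was the 1 of the 32 genes held by 4 libraries against 0, beside 1.75% of all genes called. The strongest peak of 2 of the 32, Fyb and Ubash3a, reached an unadjusted p under 0.05 there (exact permutation, adjusted p = 0.633 for both), beside 4.52% of genes tested. In TPdh-/- TM against TPdh-/- TE the counts were 0, beside 0.287%, and 1, beside 2.9%. Peaks at starts were found in 30.3% of gene and library pairs for the 32 genes, in 21.9% for the 10 genes and in 20.9% for all genes.

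The promoters of the genes had low CpG content. RefSeq promoters of 300 bp (GRCm38.p6) were matched for 7 of the genes, and those of Cd4, Cd8b1 and Cd28 were not. None of the 8 promoters of these 7 genes was CpG-rich, which was taken as an observed to expected CpG ratio of at least 0.6 with at least 50% GC. The ratio ran from 0.0774 at Cd3d to 0.333 at Cd3e. Among all protein-coding promoters 46.7% were CpG-rich. Of CpG-rich promoters, 28.4% ± 10.4 had a peak in WT TE, 16.7% ± 12.3 in TPdh-/- TE, 15.2% ± 12.7 in WT TM and 27.1% ± 8.05 in TPdh-/- TM (SD, n = 4). Of CpG-poor promoters the shares were 3.61% ± 1.59, 3.26% ± 2.11, 2.64% ± 2.37 and 5.76% ± 1.54. A CpG-poor promoter had a median of 0 libraries with a peak and a CpG-rich one a median of 3. Of the 8 promoters here, the inner promoter of Lck, at 129558323 to 129558622, had a peak in 4 libraries, and the others had a peak in at most 1. The start of Hdac1 in the Lck window, held by every WT TE library, had 73.7% GC and 34 CpG dinucleotides in the 300 bp around its summit.

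**Figure D5:**
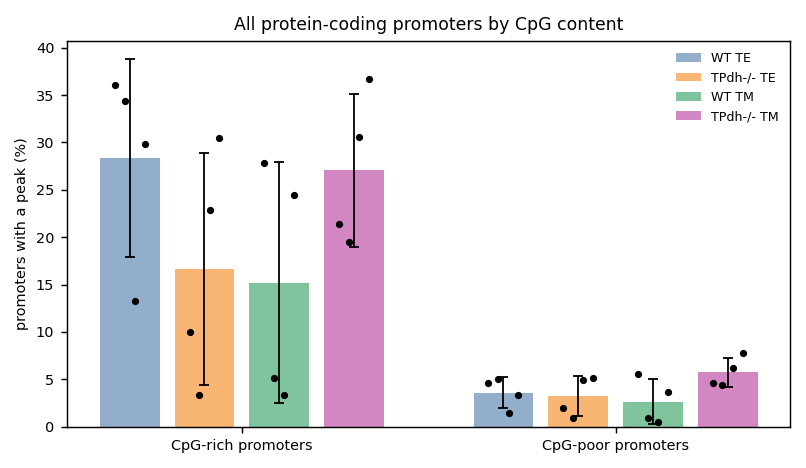
Percent of all protein-coding promoters with a peak on their 300 bp, for CpG-rich and CpG-poor promoters, with bars for the mean of 4 libraries, whiskers for the SD and points for the libraries. CpG-rich promoters stand higher than CpG-poor ones in each group.

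Likeness between genes was measured for Cd3e, which with Cd4 had a peak in the most libraries. Over the 16 libraries, the percentile of its strongest peak in each list was most like that of Abcc1 (Spearman's rho = 0.93), Apoc1 (0.924) and Adcy7 (0.916) among 20362 genes on other chromosomes. These points share library depth and list length, and the values are a description without a test.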

How the data were processed

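Peak lists of 16 ATAC-seq libraries (TE and TM, WT and TPdh-/-, 4 each, grouped by their titles) were analysed. Per the study's methods, reads were trimmed with Trimmomatic, aligned to GRCm38 with BWA MEM 0.7.17, kept where uniquely placed and outside blacklisted regions, and called per library with MACS2 2.2.7.1 on paired fragments. A transposase offset was not given in the sources used here. The authors deposited for each peak a fold enrichment (the ratio of summit pileup to local background, 1 added to both), a −log10 p-value, a −log10 q-value and a score that is 10 times the −log10 q without decimals. Read counts and coverage were not analysed here.

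Summit fragments and background were solved from fold enrichment and −log10 p (99.56% of peaks or more per library), and the most frequent background was the background coverage. In TPdh-/- TE replicate 4 the solved background of 24 peaks, none of them in the loci described, lay below it. Genes and starts came from GENCODE M21, and sequence from RefSeq GRCm38.p6, where 32851 of 32851 promoters matched the genome. A gene was held by a library when a peak overlapped it or the 20 kb to each side. Tests were two-sided: Fisher's exact test on libraries held and the exact permutation test (70 arrangements) on the strongest fold enrichment, with Benjamini-Hochberg adjustment over all genes or regions, and residual permutation (4900 arrangements) for the difference of genotype effects. Python 3.11.15, numpy 2.4.6, pandas 2.3.3, scipy 1.17.1 and matplotlib 3.10.9 were used, and the functions were tested on simulated data.

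The genes, lists, windows, motifs and alternatives were chosen with earlier results of these data known, so counts over the 10 genes have no test. Named were all 10 genes, neighbours through whose start a gene was counted, at most 5 pathway genes per comparison held by 4 libraries against 0 with the largest difference, 3 genes most like 1 member, and regions held by at least 4 libraries. Fyb and other sites named were chosen after their values were seen. Motif and CpG shares are over all regions or promoters of the same kind. Alternatives were the flank, the overlap rule, thresholds of 5 on fold enrichment and on −log10 q, equal-sized lists, the measure of strength, the distance from a start, leaving out libraries and the replicate block. Pairing by replicate number did not show in peak strength: correlations of same-numbered libraries ran from -0.0316 to 0.0801, so the block stands with the alternatives. Such a check cannot tell whether same-numbered libraries shared an animal or a batch.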

Additional observations from a re-analysis of the deposited data

Results flagged for a closer look

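The difference between the genotype effects at Lck, 5.71 in fold enrichment of the strongest peak, had an unadjusted p under 0.05 by the exact permutation of residuals (p = 0.0290, adjusted 0.487). Each WT TE value in this difference was a peak at the start of Hdac1. In TPdh-/- TM, the strongest Lck peak of replicate 1, at 8.88 in an intron of Lck, stood apart from the other 3 libraries at 4.06 to 4.82. WT TE replicate 1 had a peak at the start of 1 of the genes where the other 3 WT TE libraries had 2 each. WT TE replicate 2, the longest WT TE list, had 9 peaks in the 7 loci where the others had 3 or 4. Gaps of this size were looked for in 31 groups of 4 values and found in 3. The threshold is passed by chance about 1 in 20 times for independent, normally distributed values. Counts of genes or peaks are whole numbers and the groups share libraries, so that rate does not hold for them. None of these values was weighed further.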

How the results depend on the processing

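Of 454 alternatives over all values, 30 lost a call, 56 moved a count by over 1.5 times or a mean with no test by over 1 SD, and 367 did none of these. Some of the 367 could not differ. The replicate block leaves each mean as it is, and testing all annotated genes changes only the adjustment. The other overlap rule changes no region. A sign changed in 14, of which 13 were means with no test and 1 was a called value. The called value was the Cd4 difference in WT TM against WT TE, which was -0.0676 with 50 kb to each side (exact permutation p = 0.943). In the same comparison, 2 of the 10 genes were called by the strongest peak in the full lists, beside 4.52% of genes tested. The number called was 0 with 5 kb (3.69% of genes tested), no flank (3.88%), equal-sized lists (2.46%) and the replicate block (0%). It was 1 with 50 kb (6.36%), with −log10 q of at least 5 (1.01%) and with fold enrichment of at least 5 (1.97%). In TPdh-/- TM against TPdh-/- TE the number called was 1 in the full lists, beside 2.9% of genes tested. It went to 0 with 50 kb (3.20%), with −log10 q of at least 5 (0.668%), in equal-sized lists (0.264%) and under the block (0%). In TPdh-/- TE against WT TE it went from 0 to 2 with the percentile as the measure, where 13.1% of all genes were called. The difference of genotype effects was called for 1 gene, beside 8.83% of all genes tested. It was called for 0 with 5 kb, either threshold or equal-sized lists, and for 2 with the percentile. The shares of all genes called under these alternatives were not calculated, so these counts cannot be set against them. By libraries with a peak, 1 gene was called in WT TM against WT TE with −log10 q of at least 5, beside 0.460% of all genes. By region, 1 was called in TPdh-/- TE against WT TE with −log10 q of at least 5, beside 0.183% of all regions tested. With fold enrichment of at least 5, 1 was also called there, beside 0.126%. In WT TM against WT TE, 0 rather than 1 was called in equal-sized lists (0.794% of regions tested) and under the block (0%).

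The mean number of genes with a peak differed by 0.25 between TPdh-/- TM and TPdh-/- TE with 50 kb and by -0.25 between TPdh-/- TE and WT TE in equal-sized lists. At starts the sign depended on the setting in 3 of the 4 comparisons. TPdh-/- TM minus WT TM, 2.75 in the full lists, was 0.25 with −log10 q of at least 5, 0.5 with fold enrichment of at least 5 and -0.25 in equal-sized lists, and TPdh-/- TM minus TPdh-/- TE was 0.75, 0.5 and 0.25. WT TM minus WT TE, -0.25 in the full lists, was 1 with −log10 q of at least 5 and 0.75 within 2000 bp, where TPdh-/- TE minus WT TE was 1 rather than -0.5. The difference in log2 peak density was 0.43 for TPdh-/- TM against WT TM and 0.77 against TPdh-/- TE with fold enrichment of at least 5. The causes were not tested. No density could be given where a library had no peak in the 7 loci, and the other overlap rule changes no region, since each peak lies inside its merged region.

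With each library left out in turn, genes called by libraries with a peak ranged from 0 to 2 in TPdh-/- TE against WT TE and from 0 to 1 in WT TM against WT TE, and the highest counts came without WT TE replicate 2, where 11.6% and 4.87% of all genes were called. Those called by the strongest peak ranged from 0 to 2 for both genotype comparisons, from 1 to 3 in WT TM against WT TE and from 0 to 1 in TPdh-/- TM against TPdh-/- TE. At the highest counts, 12.998% of all genes were called in TE without WT TE replicate 2 and 9.70% without TPdh-/- TE replicate 1, 7.89% in TM without WT TM replicate 1 and 6.16% in WT without WT TM replicate 3. Regions called ranged from 0 to 1 for TPdh-/- TM in both of its comparisons and from 1 to 2 in WT TM against WT TE. The highest counts for TPdh-/- TM came without its replicate 3 or 4. There 0.0775% and 0.0787% of all regions tested were called against WT TM, and 0.0622% and 0.0627% against TPdh-/- TE. In WT the highest count came without WT TM replicate 3, beside 0.123% of regions. With 3 libraries against 4 the Lck call was lost without any WT TE library, the Cd4 call without any WT TM library and the Cd28 call without TPdh-/- TE replicate 2 or 3 or TPdh-/- TM replicate 3 or 4.

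Replicate numbers showed no pairing in peak strength, and under the replicate block no test reached the threshold, since the smallest exact p for 4 pairs is 0.125. At this depth, with a median of 5 fragments at a summit, a gene without a peak cannot be told from one whose site fell short of the caller's threshold.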
